A study of Homo sapiens with 40 samples.

Results

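In MDA-MB-231 cells, a mesenchymal triple-negative breast cancer line, 21 genes were at 5 counts or fewer in each of the 3 libraries labelled SLUG KO and at 50 counts or more in each of the 3 wild-type (WT) libraries. The genes were chosen by these limits on raw counts in the 6 libraries, out of 60708 counted and 11912 that reached 50 counts in every WT library (0.176%). The loss in SLUG KO is therefore how the genes were picked, and it is described here without a test. A gene is called silent in a group where all 3 libraries hold at most 5 counts, on where all 3 hold at least 50, and between otherwise. The 21 genes comprise 19 protein-coding genes and 2 long noncoding RNAs, LINC00261 and LINC02970.

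RNA-seq was deposited for 24 libraries, 3 in each of 8 groups, and another 16 samples of chromatin accessibility were not analysed here. MDA-MB-231 cells were grown as monolayers. WT cells were unedited and untreated. SLUG KO cells were edited with Cas9 and 1 guide against SNAI2, sorted and expanded from single-cell colonies. Other cells were transfected with scrambled siRNA (Csi) or with siRNAs against SMAD2, SMAD3 and SMAD4 (siSMAD2/3/4). MI-spheres are 3D cultures of MCF-10A, an immortalized breast epithelial line, and MII-spheres those of its HRAS-transformed derivative; each line was left unstimulated (Ctrl) or received TGFβ1 at 2.5 ng/ml for 16 h (TGFβ). The batch label is shared by WT, SLUG KO and the spheres, and another label is shared by Csi and siSMAD2/3/4. That label names a flow cell, but the deposited data of siSMAD2/3/4 replicates 1 and 2 carry the name of a different flow cell. How many clones lie behind the 3 SLUG KO libraries is not given in the sources used here, so an effect of SLUG and a property of an expanded clone cannot be told apart. The labels call the 3 libraries of a group biological replicates, and the errors and p-values below measure the spread between them.

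SLUG is the zinc finger protein encoded by SNAI2. It binds E-box motifs with the core CAGGTG, recruits corepressors through its SNAG domain and is best known for repressing epithelial genes during the epithelial-mesenchymal transition (EMT). In the breast it is associated with basal and progenitor cells.

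SNAI2 itself had 1600, 1264 and 1420 counts in SLUG KO and 805, 504 and 837 in WT, or 60.2 to 66.6 against 22.4 to 35.0 CPM, the counts scaled to the total of each library. Its RNA was thus present, and higher, in the edited cells. The guide targets the start of exon 1, and the edit itself was not examined here, so a count over the whole gene checks nothing about the label. The study reports that its knockout clones were checked by ddPCR and immunoblotting. SOX4, a transcription factor the study follows, had 17, 14 and 14 counts in SLUG KO and 1066, 1055 and 893 in WT, outside the limit for silence. Library totals ran from 14124688 to 38406952 counts over the 24 libraries, with 21005560 to 24701438 in SLUG KO, 22533912 to 23933524 in WT and 29479044 to 38406952 in Csi. WT replicate 2 stood apart from the other WT libraries (Pearson's r of log2 CPM across genes 0.948 and 0.943, against 0.991 between replicates 1 and 3 and at least 0.989 in every other group). It was the lowest WT library for 8 of the 21 genes (50.8% of the genes on in WT) and the highest for another 8 (41.7%), while replicate 3 was the lowest for 10 and replicate 1 the highest for 10. Of 12 mesenchymal carcinoma markers 11 were on in WT and in SLUG KO, with summed levels of 6341 to 7284 and 6632 to 6829 CPM. In TGFβ-stimulated MI-spheres 11 of 12 were on as well, but at 955 to 1028 CPM. The summed level, and not the number on, therefore sets the MDA-MB-231 groups apart from these spheres.

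Promoters of 17 of the 21 genes were found in RefSeq (GRCh38.p14, 250 bases before to 50 after the annotated start), and none was found for the other 4, among them ADAMTS1, PRSS51 and ZNF521. The SLUG-type E-box CAGGTG, or CACCTG when read on the other strand, occurred in 4 of them (23.5%), against 17.3% of 9450 promoters of genes on in WT and 20.6% of all 27305 promoters. These 4 are shown because they carry the motif of the edited factor, with the motif in capitals, 5′ to 3′ on the strand of the gene.
AGR2, chr7:16804950-16805249, minus strand: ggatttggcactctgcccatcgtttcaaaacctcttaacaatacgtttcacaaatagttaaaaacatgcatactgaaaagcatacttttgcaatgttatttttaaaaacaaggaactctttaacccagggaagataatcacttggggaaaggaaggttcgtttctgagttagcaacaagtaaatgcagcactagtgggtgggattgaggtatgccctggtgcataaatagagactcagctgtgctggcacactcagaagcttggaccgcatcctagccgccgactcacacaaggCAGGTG
DSC2, chr18:31102372-31102671, minus strand: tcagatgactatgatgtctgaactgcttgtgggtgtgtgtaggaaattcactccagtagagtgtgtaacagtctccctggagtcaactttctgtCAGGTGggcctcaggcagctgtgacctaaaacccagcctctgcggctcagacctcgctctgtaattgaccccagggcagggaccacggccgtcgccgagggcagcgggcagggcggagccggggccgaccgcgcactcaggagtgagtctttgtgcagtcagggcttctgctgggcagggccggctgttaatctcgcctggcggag
LINC02970, chr20:62603392-62603691, minus strand: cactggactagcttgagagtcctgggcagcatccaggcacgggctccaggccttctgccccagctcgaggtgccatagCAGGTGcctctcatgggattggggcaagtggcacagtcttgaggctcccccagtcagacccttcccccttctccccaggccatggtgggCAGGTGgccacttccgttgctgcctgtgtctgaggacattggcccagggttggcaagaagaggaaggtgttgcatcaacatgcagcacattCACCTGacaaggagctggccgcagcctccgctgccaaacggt
PELI2, chr14:56118161-56118460, plus strand: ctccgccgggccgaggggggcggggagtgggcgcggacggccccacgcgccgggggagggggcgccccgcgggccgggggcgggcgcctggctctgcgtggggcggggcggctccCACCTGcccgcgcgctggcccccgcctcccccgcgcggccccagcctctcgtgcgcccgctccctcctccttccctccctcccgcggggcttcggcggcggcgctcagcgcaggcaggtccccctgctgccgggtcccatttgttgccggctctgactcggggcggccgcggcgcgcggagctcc
LINC02970 holds 3 copies in this window and the other 3 genes hold 1 each. In AGR2 the motif lies downstream of the start, and the RefSeq start is 28434 bases from the gene end in the count files, so this is 1 of several possible starts. DSC2 and PELI2 differ in base composition, with 15 and 45 CpG in 300 bases. Across the 17 promoters CpG ranged from 3 (GJA1) to 59 (PPP2R2C), with a median of 16, against 27 for promoters of genes on in WT and 14 for all promoters. A match is a description of these letters and not a binding site.

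The counts of the silent genes were near the floor in SLUG KO and moderate in WT. ADAMTS1, a secreted metalloprotease that cleaves proteoglycans, had 410, 461 and 414 counts in WT and 0 in all 3 SLUG KO libraries, which puts it at least 412-fold lower when 3 counts over the group are taken as the floor. DAPK1, a calmodulin-regulated kinase linked to cell death, had 170, 192 and 165 counts in WT and 0 in SLUG KO (at least 169-fold lower). GJA1, the gap junction protein connexin 43, had 162, 87 and 192 counts against 0 (at least 141-fold lower). The limits themselves require that no SLUG KO library overlaps a WT library for any of these. PDE1C, a calmodulin-dependent cyclic nucleotide phosphodiesterase, was the fourth gene at 0 in every SLUG KO library, with 135, 86 and 149 counts in WT. The other 17 genes kept 1 to 12 counts summed over the SLUG KO libraries.

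ATP10A, a phospholipid flippase, had the highest WT level at 18.7 ± 7.79 CPM (SD, n = 3), from 352, 623 and 319 counts, with 1 count in all of SLUG KO. The SD reflects WT replicate 2, which was higher than the other 2 libraries. ROBO1, a receptor for the SLIT guidance proteins, had 288, 274 and 252 counts in WT and 1 in SLUG KO. AGR2, a disulfide isomerase of the endoplasmic reticulum of secretory epithelium, had 237, 87 and 226 counts in WT and 1 in SLUG KO. WT replicate 2 was the low library for AGR2. Per kilobase of exon the order of WT levels changed, with AGR2 highest at 2.84 CPM per kb, then ADAMTS1 at 2.53, INHBB at 1.96 and RELN lowest at 0.103.

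The other genes lay between these. Among the genes of cell contact and signalling, DSC2, a desmosomal cadherin, had 148, 90 and 153 counts in WT and 3, 0 and 0 in SLUG KO. CNTNAP3, a contactin-associated protein of the neurexin family, had 159, 167 and 149 counts against 4, 2 and 1, DTNA, the dystrobrevin gene, had 7.33, 6.66 and 4.22 CPM against 1 count in all of SLUG KO, and PCDH7, a protocadherin, had 95, 89 and 60 counts against 2, 0 and 0. Among the enzymes and regulators, PPP2R2C, a regulatory subunit of protein phosphatase 2A, had 94, 133 and 87 counts in WT, PELI2, an E3 ubiquitin ligase of the Pellino family, 99, 71 and 100, and ZNF521, a zinc finger transcription factor, 83, 94 and 87, each with at most 2 counts in a SLUG KO library. PRSS51, a serine protease gene, had 126, 122 and 85 counts in WT and 1, 2 and 1 in SLUG KO. The noncoding RNAs had 251, 224 and 235 counts (LINC00261) and 83, 100 and 94 counts (LINC02970) in WT, and 4, 2 and 0 and 0, 0 and 2 in SLUG KO. WT and SLUG KO did not overlap for any of these, as the limits require.

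The smallest ratios lay with genes whose few SLUG KO counts were nearest the limit. RELN, the secreted glycoprotein reelin, had 95, 70 and 89 counts in WT and 3, 2 and 5 in SLUG KO, a WT to SLUG KO ratio of 24.4. INHBB, the βB subunit of activin and inhibin, had 124, 172 and 141 counts against 4, 5 and 3, a ratio of 35.1. NLGN1, a neuroligin of synaptic adhesion, had 72 to 171 counts against 5, 3 and 1, with a counting interval of the ratio from 20.8 to 88.2. These 3 stood just inside the silent limit. Just outside it were AFF3 (5, 6 and 2 counts in SLUG KO), FSIP2 (7, 7 and 5) and LEF1 (7, 5 and 4). At the other limit PCDH7, RELN and PELI2 were just inside, with lowest WT counts of 60, 70 and 71, and MDFI, SDR16C5 and PKIA just outside, with 46, 45 and 45. A further 33 genes on in WT peaked at 6 to 20 counts in SLUG KO, and 45 genes silent in SLUG KO had their lowest WT count between 20 and 49.

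**Figure D1:**
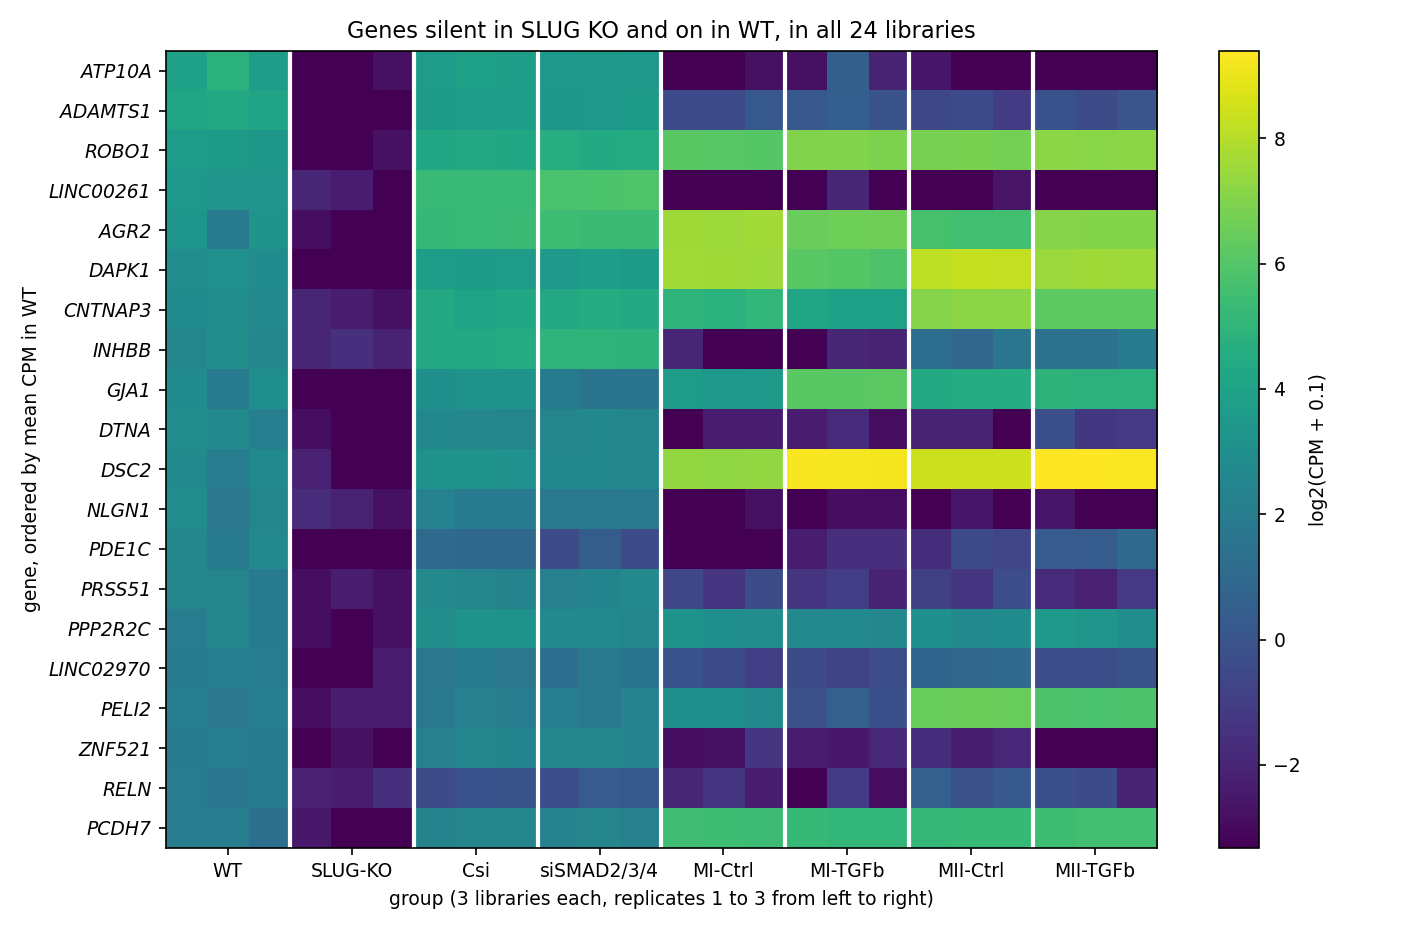
Level of 20 of the 21 genes (rows, ordered by mean CPM in WT) in the 24 libraries (columns, 3 per group), as log2(CPM + 0.1) in colour. The SLUG KO columns are dark for every gene drawn, which is how they were chosen; RELN is the gene not on in Csi, and in the spheres the rows split into bright ones such as DSC2 and DAPK1 and dark ones such as LINC00261 and NLGN1.

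With the groups exchanged, 1 gene met the same limits: DDX53, a DEAD-box RNA helicase gene, had 2, 0 and 2 counts in WT, 62, 65 and 68 in SLUG KO and 1, 0 and 1 in Csi (0.00837% of the genes on in SLUG KO). The same limits applied to the 2 unedited MDA-MB-231 groups found 28 genes silent in Csi among those on in WT (0.235%) and 19 silent in WT among those on in Csi (0.147%). None of the 21 genes was among the 28. Between siSMAD2/3/4 and Csi, 0 genes met the limits in either direction. In MI-spheres 4 genes on without TGFβ were silent with it (0.0332%) and 5 the other way (0.0425%), in MII-spheres 0 and 0. Between unstimulated MII- and MI-spheres 43 were silent in MII (0.357%) and 45 in MI (0.382%). The 28 and 19 genes between the unedited groups stand beside the 21 and 1 between SLUG KO and WT.

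The Csi libraries are independent of the rule and show whether the genes are on in another culture of the line. Of the 21 genes 20 were on in Csi (97.8% of all genes on in WT were on there), and none was silent. RELN was the exception, with 20, 32 and 32 counts. The limit is on raw counts, and the Csi libraries were deeper than those of WT. PDE1C was on in Csi with 57, 71 and 68 counts, or 1.93, 1.85 and 1.85 CPM, where 50 counts in WT are 2.09 to 2.22 CPM. Conversely, 122 genes were silent in SLUG KO and on in Csi (0.941% of those on in Csi), of which 20 were among the 21 genes, 18 were silent in WT too and 84 lay between in WT. Most genes that separate SLUG KO from Csi in this way therefore did not separate it from WT by the same limits.

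Levels in Csi were not those of WT. For 12 genes every Csi library was above every WT library in CPM (57.1%, against 23.8% of the genes on in WT), for 4 every Csi library was below (20.5% of the genes on in WT), and 5 overlapped. AGR2 had 35.1, 39.2 and 40.2 CPM in Csi against 10.2, 3.86 and 9.44 in WT, a ratio of means of 4.86. LINC00261, a long noncoding RNA, had 37.3, 39.5 and 39.1 CPM in Csi against 10.8, 9.94 and 9.82, a ratio of 3.79. INHBB followed at 3.38 and CNTNAP3 at 2.74. All 4 were higher in Csi without overlap. At the low end stood RELN at 0.218, PDE1C at 0.355, ADAMTS1 at 0.692 and LINC02970 at 0.830, and the median ratio of the 21 genes was 1.40, against 0.982 over the genes on in WT. Csi differed from WT in transfection and batch label at once, and these cannot be told apart.

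**Figure D2:**
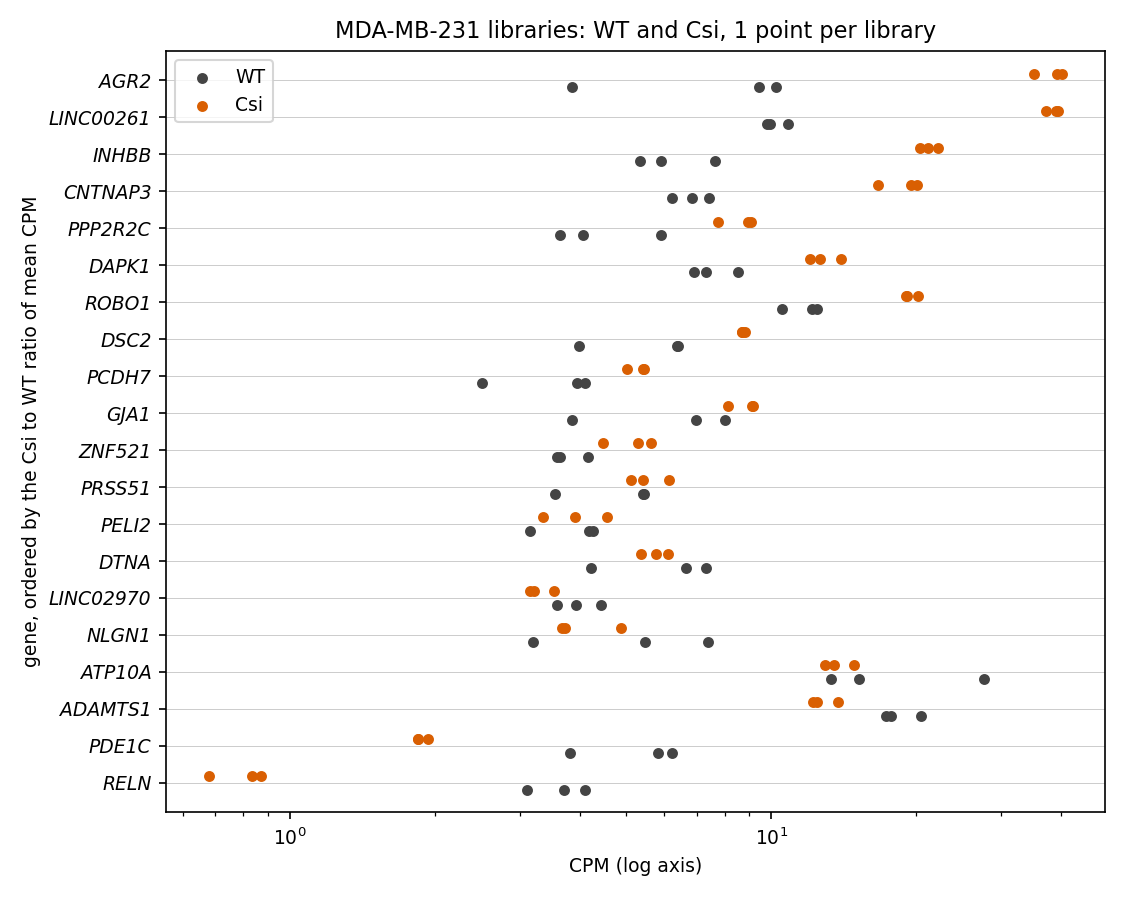
CPM (log axis) of 20 of the 21 genes in the 3 WT libraries (grey) and the 3 Csi libraries (orange), 1 point per library, ordered by the ratio of means. The order runs from RELN (0.218) to AGR2 (4.86); genes with all orange points to the right of all grey points are those above without overlap.

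Knockdown of SMAD2, SMAD3 and SMAD4, the intracellular mediators of TGFβ signals, silenced none of the genes, nor any of the 12967 genes on in Csi. The targets fell to 23.6 to 24.5 CPM from 88.9 to 92.5 for SMAD2, to 162 to 174 from 262 to 276 for SMAD3 and to 16.0 to 18.1 from 53.8 to 56.9 for SMAD4, with no overlap. Of the 21 genes, 19 were on in siSMAD2/3/4 (97.6% of the genes on in WT), 2 lay between and 0 were silent (0.243%). Of the genes on in WT, 0.235% were silent in Csi without the knockdown. By edgeR's quasi-likelihood test all 21 could be tested, and 2, or 9.52%, were called lower (0.927% of 17696 genes). A call needed a log2 fold-change beyond 1 in either direction together with an adjusted p below 0.05, and 0 were called higher (0.978%). GJA1 had 8.14, 9.11 and 9.17 CPM in Csi and 3.72, 2.89 and 3.01 in siSMAD2/3/4, a log2 fold-change of -1.47 ± 0.12 (SE; adjusted p = 3.82e-11). PDE1C had 1.93, 1.85 and 1.85 CPM in Csi and 0.638, 1.27 and 0.659 in siSMAD2/3/4, -1.15 ± 0.27 (adjusted p = 0.000934). Both fell in every siSMAD2/3/4 library, but PDE1C lost the fold-change limit without siSMAD2/3/4 replicate 1 or replicate 3, where it lay just inside the limit. By adjusted p alone 10 of the 21 passed, 4 higher (16.3% of genes) and 6 lower (19.7%). With the flow cell as a term in the fit both calls stayed, but 7 passed by adjusted p alone, 2 higher and 5 lower, and ADAMTS1, ROBO1 and CNTNAP3 no longer did (adjusted p = 0.580, 0.187 and 0.153).

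Among the smaller changes, LINC00261 rose by 0.52 ± 0.06 on the log2 scale (adjusted p = 4.66e-09) and INHBB by 0.51 ± 0.07 (adjusted p = 2.11e-07). DSC2 fell by 0.56 ± 0.10 (adjusted p = 6.20e-05). SOX4 rose by 0.39 ± 0.04 on the log2 scale in the same fit. SNAI2 fell by 0.23 ± 0.06 (adjusted p = 0.00515), which did not pass with the flow cell as a term (adjusted p = 0.0965). The median log2 fold-change of the 21 genes was -0.06, against 0.00 over all genes tested. By adjusted p alone, where 16.3% of all genes were higher and 19.7% lower, 21 of 48 TGFβ, BMP and activin genes were higher, INHBB among them, and 11 lower. The counts were 6 and 4 of 24 EMT genes, and 10 and 3 of 23 epithelial adhesion genes.

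In the spheres the 21 genes divided. On in all 4 sphere groups were 9, among them ROBO1, AGR2, DAPK1, CNTNAP3, GJA1, DSC2, PPP2R2C and PCDH7. Silent in all 4 were LINC00261 and NLGN1, and 10 changed state or lay between. In MI-Ctrl 10 were on and 6 silent, in MI-TGFβ 9 and 5, in MII-Ctrl 10 and 5, and in MII-TGFβ 10 and 5. Of all genes on in WT, 88.8%, 88.3%, 87.0% and 86.2% were on in these groups and 2.86%, 2.01%, 2.99% and 2.93% silent. The sphere lines are of another origin than MDA-MB-231, and line, 3D culture and medium cannot be told apart from SLUG, whose gene SNAI2 was itself at 3.89 to 4.64 CPM in MI-Ctrl and 1.44 to 1.84 in MII-Ctrl, against 22.4 to 35.0 in WT.

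Among the genes on in the spheres, DSC2 had 159, 159 and 162 CPM in MI-Ctrl and 337, 336 and 350 in MII-Ctrl, against 3.99 to 6.39 in WT. DAPK1 had 197, 195 and 184 CPM in MI-Ctrl and 290, 309 and 296 in MII-Ctrl, against 6.89 to 8.52 in WT. Every sphere library stood above every WT library for both genes. By contrast ATP10A, highest of the 21 in WT, had 0, 0 and 1 counts in MI-Ctrl and 1, 0 and 0 in MII-Ctrl. In MI-TGFβ it had 1, 34 and 4 counts, so its level there rests on replicate 2.

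TGFβ stimulation changed several of these genes. In MI-spheres 12 of the 21 passed the low-count filter, and 4 were called: 2 higher, or 16.7% (3.64% of 16863 genes), and 2 lower, also 16.7% (9.92% of genes). DSC2 went from 159, 159 and 162 to 617, 590 and 576 CPM, a log2 fold-change of 2.03 ± 0.05 (SE, edgeR, adjusted p = 5.63e-18). GJA1 went from 12.8, 10.8 and 11.8 to 69.9, 70.2 and 72.0 CPM, 2.72 ± 0.07 (adjusted p = 1.67e-17). Both rose in every stimulated library with no overlap. DAPK1 fell from 197, 195 and 184 to 70.0, 65.2 and 57.5 CPM, -1.44 ± 0.06 (adjusted p = 2.43e-14). PELI2 fell from 8.07, 7.86 and 6.60 to 0.805, 1.39 and 0.771 CPM, -2.78 ± 0.20 (adjusted p = 1.82e-10). Just under the fold-change limit were ROBO1 at 0.97 ± 0.05, AGR2 at -0.87 ± 0.06 and CNTNAP3 at -0.80 ± 0.09. Of the 12 tested, 4 were higher (28.7% of genes) and 5 lower (27.4%) by adjusted p alone, and SNAI2 rose by 0.92 ± 0.13 (adjusted p = 4.64e-06).

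In MII-spheres 14 of the 21 passed the filter, and 3, or 21.4%, were called higher (3.12% of 16396 genes) and 1, or 7.14%, lower (7.5%). AGR2 went from 52.0, 46.2 and 46.8 to 138, 132 and 132 CPM, a log2 fold-change of 1.61 ± 0.05 (edgeR, adjusted p = 3.56e-32). DSC2 went from 337, 336 and 350 to 651, 674 and 648 CPM, 1.08 ± 0.03 (adjusted p = 3.73e-32). PDE1C went from 0.212, 0.648 and 0.535 to 1.16, 1.22 and 2.02 CPM, 1.66 ± 0.38 (adjusted p = 0.000228). All 3 rose without overlap in CPM. PDE1C rested on few counts, 3, 18 and 9 unstimulated and 18, 19 and 31 with TGFβ, and lay between in both groups. LINC02970 fell from 23, 48 and 32 counts to 11, 11 and 13, with a log2 fold-change of -1.08 ± 0.32 (adjusted p = 0.00364). By adjusted p alone 8 were higher (29.9% of genes) and 4 lower (27.6%), and SNAI2 did not pass (0.40 ± 0.27, adjusted p = 0.207). By the same criterion the TGFβ, BMP and activin list gave 11 higher and 17 lower of 45 in MI-spheres, against 28.7% and 27.4% of all genes. In MII-spheres it gave 14 and 13 of 47, against 29.9% and 27.6%, with INHBB tested and not passing. The EMT list gave 17 and 2 of 25 in MI- and 10 and 3 of 21 in MII-spheres.

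The interaction of line and stimulation was tested over the 12 sphere libraries, with 16 of the 21 tested. The response of 3 genes differed between the lines by both limits (5.84% of 18591 genes called). AGR2 fell in MI- and rose in MII-spheres, a difference of MII minus MI effect of 2.48 ± 0.08 on the log2 scale (adjusted p = 1.42e-24). GJA1 rose from 11.8 to 70.7 CPM in MI- and from 22.6 to 29.5 CPM in MII-spheres (difference -2.20 ± 0.10, adjusted p = 2.40e-19). PELI2 fell in both, less in MII-spheres (88.5 to 55.9 CPM, difference 2.26 ± 0.18, adjusted p = 4.03e-13). DSC2 rose in both, and the difference of -0.95 ± 0.06 lay within the limit of 1 (adjusted p = 1.68e-15). By adjusted p alone other genes differed too. Among them were DAPK1 (0.90 ± 0.07, adjusted p = 7.09e-13) and ROBO1 (-0.45 ± 0.07, adjusted p = 1.67e-06). PPP2R2C (0.80 ± 0.18, adjusted p = 0.000976) and PCDH7 (0.68 ± 0.09, adjusted p = 1.36e-07) also passed.

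**Figure D3:**
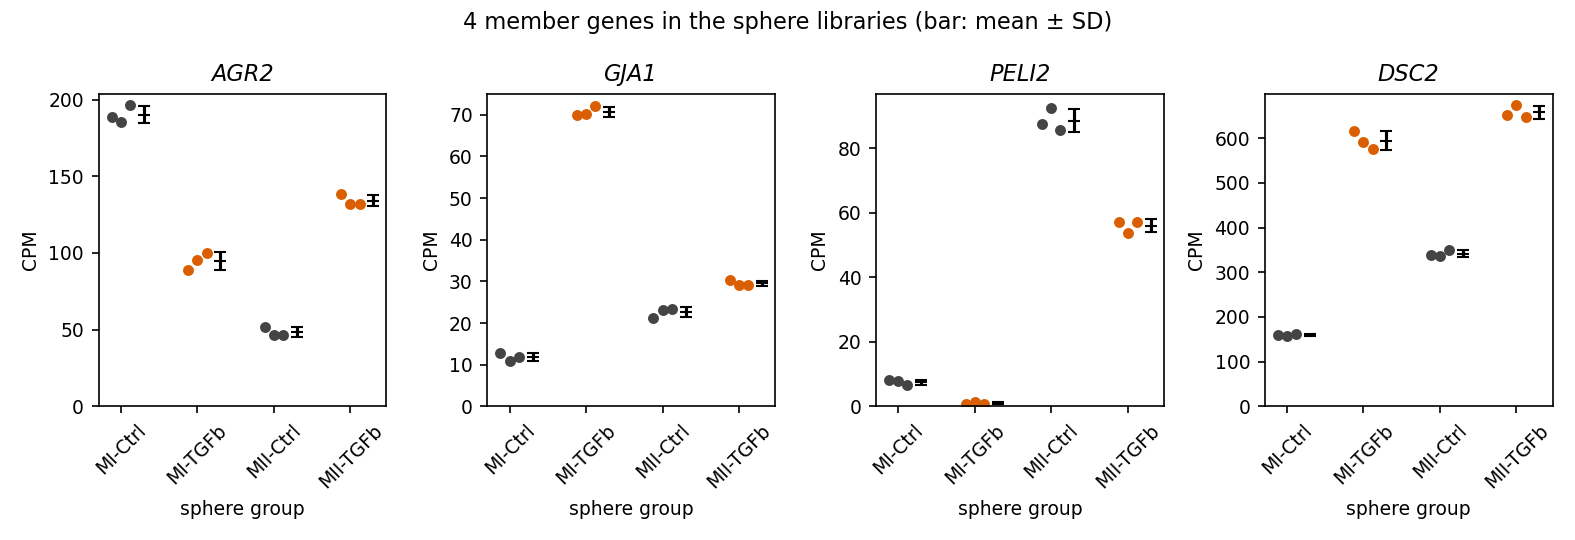
CPM of AGR2, GJA1, PELI2 and DSC2 in each sphere library (points; grey unstimulated, orange with TGFβ) with the mean and SD of the 3 libraries beside them. AGR2 falls from 190 to 94.8 CPM in MI- and rises from 48.3 to 134 CPM in MII-spheres, while DSC2 rises in both.

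Unstimulated MII- and MI-spheres differed for 8 of the 15 genes tested, 7 (46.7%) higher in MII (12.5% of 17862 genes) and 1 (6.67%) lower (7.62% of genes). These comparisons share the control libraries with those of TGFβ above. PELI2 had 87.6, 92.3 and 85.5 CPM in MII-Ctrl and 8.07, 7.86 and 6.60 in MI-Ctrl, a log2 fold-change of 3.46 ± 0.07 (edgeR, adjusted p = 9.27e-43). CNTNAP3 had a mean of 143 ± 5.25 CPM against 30.9 ± 3.49 (SD, n = 3), 2.13 ± 0.06 (adjusted p = 7.35e-38). INHBB had 33, 49 and 52 counts against 4, 0 and 0, and RELN 20, 22 and 18 against 4, 6 and 2. AGR2 was the gene lower in MII-Ctrl, at -2.08 ± 0.05 (adjusted p = 1.24e-40). LINC02970 (1.38 ± 0.32) and DSC2 (1.00 ± 0.04) were also called higher, and DSC2 lay at the limit, so that it fell below it without filtering, with DESeq2 and without MI-Ctrl replicate 1 or 2 or MII-Ctrl replicate 3.

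**Figure D4:**
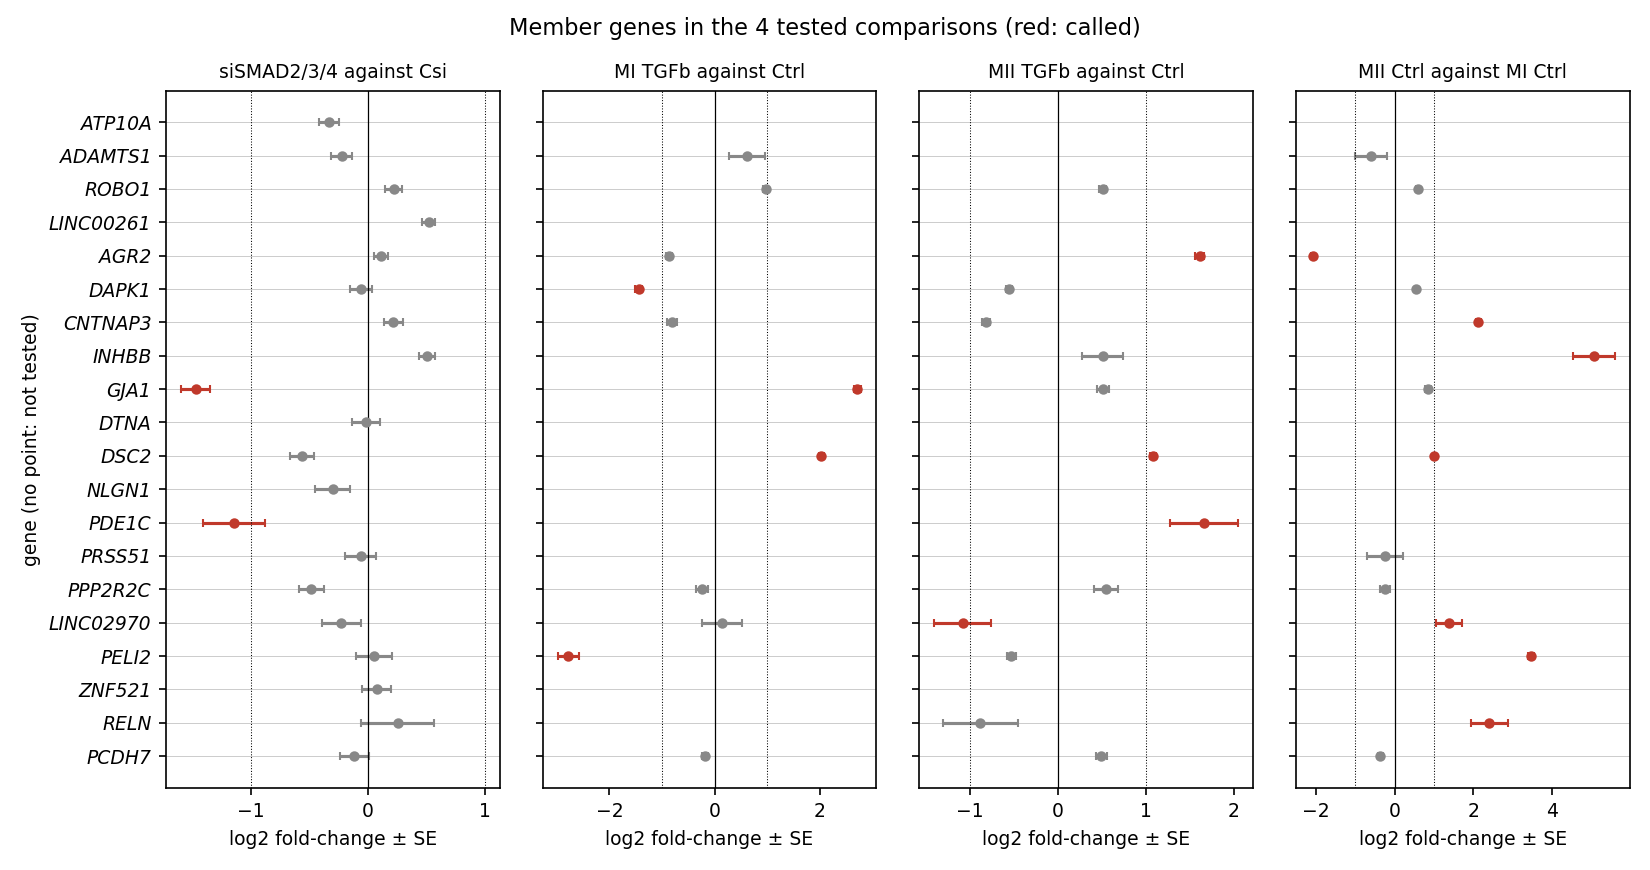
Log2 fold-change with its SE for 20 of the 21 genes in siSMAD2/3/4 against Csi, MI TGFβ against Ctrl, MII TGFβ against Ctrl and MII Ctrl against MI Ctrl, each panel with its own axis; red points passed both limits, dotted lines mark an absolute log2 fold-change of 1, and a row without a point was not tested. The red points number 2, 4, 4 and 7.

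The 21 genes lie on 13 chromosomes, with 3 each on chromosomes 7 and 18. No gene of the list had another within 2 Mb. The closest pair was DTNA (chr18:34493291-34891844) and DSC2 (chr18:31058840-31102522), 3.39 Mb apart, followed by DSC2 and ZNF521 (chr18:25061924-25352190), 5.71 Mb apart. Chromosome 18 had the largest share of its genes on in WT in the list, 3 of 165 (1.82%). The genes are long, with a median span of 188 kb against 33.4 kb for the genes on in WT. Several genes are isolated, and ROBO1 (chr3:78597239-79767998) and PCDH7 (chr4:30720415-31146805) had no gene on in WT within 1 Mb.

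The 135 other genes on in WT within 1 Mb show whether whole regions were low in SLUG KO. None was silent, and 16 (11.9%) were below -1 in the log2 ratio of SLUG KO to WT mean CPM, against 5.49% of the genes on in WT, while the medians were 0.000348 and -0.0406. Most genes next to a silent gene were thus near their WT level. UBE3A beside ATP10A (chr15:25677271-25865184) had a log2 ratio of -0.02, but SNHG14, 257 kb from ATP10A, stood at -1.18. BZW2 and AHR on either side of AGR2 (chr7:16791811-16833433) had log2 ratios of 0.22 and 0.35. CTSL, which encodes cathepsin L and lies 15.4 kb from DAPK1 (chr9:87497228-87708634), was higher, at 208 against 96.7 CPM.

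A few neighbours were low as well. FOXA2, a pioneer transcription factor of endoderm and secretory epithelium, lies 2.36 kb from LINC00261 (chr20:22547671-22578642) and had 284, 505 and 313 counts in WT and 17, 11 and 14 in SLUG KO, a log2 ratio of -4.47. In Csi the pair stood at 38.1 ± 3.40 CPM for FOXA2 and 38.6 ± 1.16 for LINC00261 (SD, n = 3). The next genes on in WT beyond FOXA2, THBD and NXT1, had log2 ratios of 0.67 and 0.11. ANKRD18A, 452 kb from CNTNAP3 (chr9:39072767-39288315), stood at -2.94, AQP1, 826 kb from PDE1C (chr7:31751179-32428131), at -3.35, and TFCP2L1, 865 kb from INHBB (chr2:120346136-120351803), at -3.37. Around PRSS51 on chromosome 8 all 7 neighbours were lower in SLUG KO, from -0.72 to -1.68, and 4 of them were below -1. LINC02970 also had 4 below -1, of 30.

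Relatives and partners of the silent genes, picked after the list was known, were on in SLUG KO for the most part. Of 40 such genes on in WT, 37 (92.5%) were on in SLUG KO, against 96.7% of all genes on in WT, and 0 were silent, against 0.176%. The 3 that lay between were C3, FOXA2 and PCDH9. Of the connexins, GJB2 stood at 16.0 ± 5.46 CPM in WT and 41.5 ± 5.67 in SLUG KO, while GJA1 was at 0. DSG2, the desmosomal partner of DSC2 and 396 kb from it, stood at 113 ± 21.1 and 134 ± 9.08 CPM. ROBO3, ROBO4, DAPK2, DAPK3 and ADAMTS12 were on in both groups. CNTNAP3B, a near-identical copy of CNTNAP3, had 28, 39 and 29 counts in WT and 0 in SLUG KO. Read pairs that fit both copies may not pass the mapping quality limit, so the values of CNTNAP3 are uncertain.

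Few of the 21 genes fell on the lists of pathways and markers. INHBB was the only one on the list of TGFβ, BMP and activin genes (40 on in WT), AGR2 the only luminal marker (6 on in WT), ZNF521 1 of 385 zinc finger genes and PCDH7 1 of 18 protocadherins. None was on the EMT list (17 on in WT) or the epithelial adhesion list (13 on in WT), whose median log2 ratios of SLUG KO to WT were -0.28 and 0.14, against -0.04 for all genes on in WT. The epithelial adhesion list holds neither DSC2, a desmosomal cadherin, nor GJA1, a gap junction gene, so it does not cover every gene of cell contact. Markers of luminal cells were on for 6 of 12 genes in WT and 5 in SLUG KO, and silent for 2 in WT and 6 in SLUG KO, with summed levels of 1186 to 1388 and 1239 to 1371 CPM. KRT8 and KRT18, keratins of simple epithelium, made up most of these sums, at 577 to 755 and 479 to 531 CPM in WT and 630 to 703 and 480 to 544 CPM in SLUG KO. The secreted trefoil peptide gene TFF3 had 2.37, 1.38 and 3.09 CPM in WT and 0.0810, 0 and 0 in SLUG KO, and TFF1 had 0.863, 0.399 and 0.627 against 0.162, 0.0476 and 0. Both were lower in every SLUG KO library, as AGR2 was, but AGR2 was picked by the limits and TFF1 was near the floor in WT. ESR1 and PGR, also near the floor, were lower too. The rest of the luminal list did not follow. XBP1 was higher in every SLUG KO library than in any WT library, and EPCAM, CDH1, GATA3, FOXA1, KRT8 and KRT18 overlapped. Endothelial markers were on for 3 of 10 and 2 of 10 genes, with summed levels of 59.3 to 83.8 and 45.7 to 48.3 CPM, and blood markers for 2 of 16 in each, silent for 10 and 14, with 11.3 to 16.6 and 6.94 to 7.37 CPM. Their part in the list was not tested.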

How the data were processed

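Reads were trimmed (Trimmomatic), mapped to GRCh38.p13 (STAR) by the authors, who counted fragments over GENCODE 38 exons with featureCounts 2.0.0, keeping pairs with both ends mapped at a mapping quality of at least 30 and ignoring strand. The deposited values are raw counts per gene of each library. A count that ignores strand cannot separate a gene from an antisense partner, and exons shared with other genes reached 12.7% of exon length (PCDH7). Symbols came from GENCODE 44 (99.6% of genes). Groups came from the labels. The values of 1 gene of the list are not reported here. The members and lists were chosen with earlier results of these data known.

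CPM are counts scaled to the library total, and log2 ratios of CPM used a pseudocount of 0.1. Ratios of WT to SLUG KO used counts summed over the libraries of a group and scaled to the summed totals. The 4 tested comparisons used edgeR 4.0.16 in R 4.3.3 (filterByExpr, TMM, quasi-likelihood test, Benjamini-Hochberg over all genes tested), each on its own 6 libraries, and the interaction test, chosen after the data were seen, used the 12 sphere libraries. The scripts were tested on simulated data. Genes were named as extremes, called genes, list members and those nearest the limits. Alternatives included DESeq2 1.42.0, other filters, a replicate block and leaving out libraries. Figures used matplotlib 3.10.9.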

Additional observations from a re-analysis of the deposited data

Results flagged for a closer look

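The response to TGFβ differed between MII- and MI-spheres for 3 of the 16 genes tested (18.75%, against 5.84% of 18591 genes). This was by an interaction test of cell line and stimulation in edgeR (absolute log2 difference above 1, adjusted p under 0.05). The difference, MII effect minus MI effect, was 2.48 for AGR2, which was lower in 3 of 3 stimulated MI libraries and higher in 3 of 3 stimulated MII libraries. It was -2.20 for GJA1, which rose in both lines, and 2.26 for PELI2, which fell in both. Each of the 3 stayed called under DESeq2, its size factors, both other filters, the replicate block and without any 1 sphere library. Groups of 3 libraries are too small for the check on single samples that stand apart.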

How the results depend on the processing

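The number of silent genes depends on the limits, by their construction. It was 4 at 0 counts, 33 at 10 or fewer, 66 with at least 20 counts in WT and 8 with at least 100, and 22 to 31 without 1 of the 6 libraries. With counts scaled to the smallest library it was again 21, but 16 were the same genes: 5 left, among them NLGN1, PCDH7, RELN and PELI2, and AFF3, FSIP2, SPDEF, MSI2 and CHRDL1 entered. The reverse count of 1 became 0, 4, 4 and 0 under the first 4 limits, 2 without WT replicate 1 and 1 to 2 over all libraries left out. The number on in Csi became 4, 31, 61 and 8 under the same limits and 20 to 28 without 1 library. With counts scaled to the smallest library it was 18 of the 21 genes then chosen. Promoters with any CANNTG numbered 8 (47.1%, against 59.0% of promoters of genes on in WT and 68.9% of all), against 4 with CAGGTG or CACCTG, and no pair of genes lay within 1 Mb under any window tried.

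By adjusted p alone the called genes were 10 for siSMAD2/3/4 against Csi, 9 for TGFβ in MI- and 12 in MII-spheres, against 2, 4 and 4. For siSMAD2/3/4 the count was 1 to 2 without 1 library, with PDE1C the call lost without siSMAD2/3/4 replicate 1 or 3. The ranges without 1 library were 4 to 4 for MI TGFβ, 4 to 5 for MII TGFβ, 7 to 9 for MII against MI Ctrl and 3 to 4 for the interaction. At least 10 counts in every library left 10 genes tested and 5 called for MII against MI Ctrl, against 8. With the replicate block the counts were 2, 4, 4 and 8, the same as without it, and 3 for the interaction; the block changed no call. With the flow cell as a term both siSMAD2/3/4 calls stayed, and the 10 that passed by adjusted p alone became 7. Same-numbered libraries shared only a number (correlations of deviations from -0.0431 to 0.0848). Of 785 recomputed log2 fold-changes 774 kept their side of the limits and none changed direction while called. Scaling by TMM over the 24 libraries moved 8 of 42 levels by more than their SD. Depth limits the least expressed genes: 50 counts are 1.30 to 3.54 CPM in these libraries.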
